A study of Mus musculus with 2 samples.

Results

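The genes described here encode lymphoid transcription factors of 3 families, the Runx factors Runx1, Runx2 and Runx3 with their partner Cbfb, the Ikaros factors Ikzf1, Ikzf2, Ikzf3, Ikzf4 and Ikzf5, and the founding Ets family member Ets1. The 10 genes were chosen by name, and a gene was measured where an array feature carried its symbol and no other. This held for 9 of them, each through 1 feature, among 28281 genes named in this way, and the signal of Runx2 was not analysed here. The cells, called regulatory innate lymphoid cells (ILCregs) by the labels, were sorted from the small intestine of 8-week-old C57BL/6 mice. The mice carry an IL-10-GFP knockin, a green fluorescent reporter for the cytokine interleukin 10. The series holds 2 whole-transcript arrays of this 1 group, replicates 1 and 2 (array 1 and array 2 here), and no other population was analysed here. The labels do not say whether the arrays came from separate mice or sorts, or by which gates the cells were sorted, so the spread between the arrays may be technical.

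Runx proteins bind DNA through the Runt domain and do so efficiently only as heterodimers with Cbfb, and they can silence or activate genes depending on the cofactors they recruit. Ikaros proteins bind DNA through zinc fingers near the amino terminus, pair with each other through zinc fingers near the carboxyl terminus, and recruit the nucleosome remodelling and deacetylase complex NuRD. Ets factors share a winged helix-turn-helix domain that reads a GGAA core. Members of all 3 families are required for the development of T cells, natural killer (NK) cells or innate lymphoid cells in mice.

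Values are the authors' processed signals, taken as log2 from their range, and means are given ± SD over both arrays. Probes differ in affinity, so signals do not order different genes by transcript abundance. As a gauge of signal from untranscribed genes, 1678 genes of olfactory, vomeronasal and taste receptors (receptor genes here) were used. Their 95th percentile was the threshold on each array, 6.74 on array 1 and 6.19 on array 2. A gene with a level signal between these values thus exceeded the threshold on array 2 only. A gene counted as above the threshold only where both arrays exceeded it. A gene below it may still be transcribed. With 1 group of 2 arrays there was no test between groups and no p-value.

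Array medians over all 61344 features were 5.02 and 4.90, and the SD between the arrays, pooled over all named genes, was 0.31. Il10 reached 10.82 ± 0.32 and Ptprc, the pan-leukocyte antigen CD45, 12.21 ± 0.10. The label was checked against marker lists. Of 9 measured markers of innate lymphoid and NK cells 3 lay above the threshold, Id2, Il7r and Rora, while Ncr1 (4.67 ± 0.06), Eomes (5.18 ± 0.51) and Thy1 (5.64 ± 0.11) lay below it on both arrays. Among all named genes 31.7% lay above it, and 39.0% of protein-coding ones outside the receptor genes. The count therefore gives no support to the label. Markers of other cells also passed, 9 of 9 for fibroblasts and smooth muscle, 9 of 11 for intestinal epithelium, 8 of 9 for macrophages and monocytes, 5 of 6 for plasma cells and 4 of 7 for T cells. The stated purity of the sort was over 95%. Which cells gave the signal of a factor gene cannot be told from these arrays, nor can fewer expressing cells be told from less RNA per cell.

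Of the 9 measured factor genes, 6 lay above the threshold on both arrays, Runx1, Runx3, Cbfb, Ikzf1, Ikzf5 and Ets1. Ikzf3 exceeded it only on array 2, and Ikzf2 and Ikzf4 on neither. The background was 31.7% of all named genes, 39.0% of protein-coding genes outside the receptor genes and 2.44% of the receptor genes themselves. By family, 3 of 3 measured genes of the Runx complex, 2 of 5 Ikaros genes and the 1 Ets gene passed. The median signal of the 9 genes was 7.44, against 5.43 for all named genes and 6.07 for protein-coding ones. With so few genes, these shares describe the genes and do not set them apart from others.

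**Figure D1:**
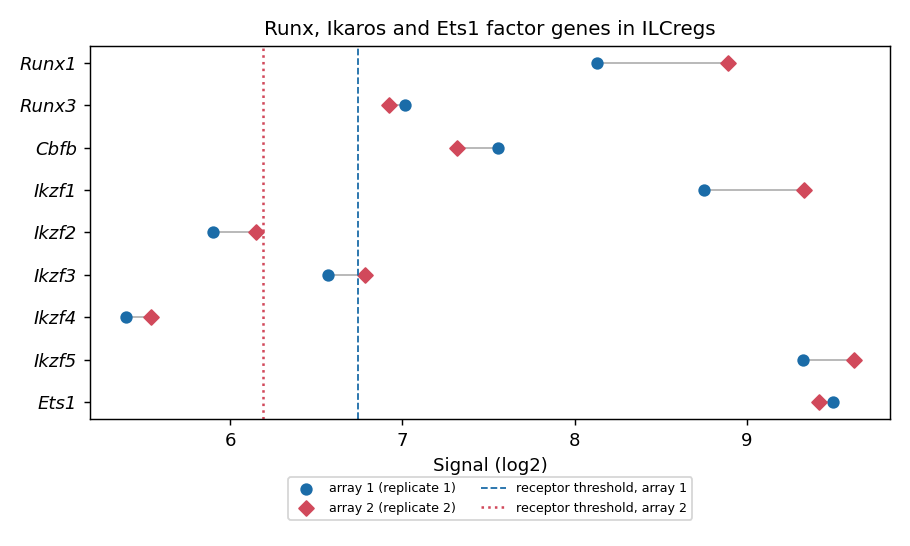
Signal of the 9 measured factor genes on the log2 scale, with a circle for array 1 and a diamond for array 2, and with each array's receptor threshold as a line. Runx1, Ikzf1, Ikzf5 and Ets1 lie more than 1 log2 unit above both thresholds, Ikzf4 lies below both, and Ikzf2 on array 2 falls just short of its line.

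Runx1, required for the emergence of blood stem cells and active through T cell development, had a signal of 8.13 on array 1 and 8.89 on array 2, a mean of 8.51 ± 0.54 (SD, n = 2). It exceeded the thresholds by 1.39 and 2.70, and 13 and 2 of the 1678 receptor genes were as high on the same arrays. Its SD was the largest of the 9 genes. Runx3, which silences Cd4 in CD8 T cells and is required for group 1 and group 3 innate lymphoid cells in mice, had 7.02 and 6.92, a mean of 6.97 ± 0.07. Both arrays placed it only a little above their thresholds, by 0.27 and 0.73, and 60 and 33 receptor genes were as high. Cbfb, the shared non-DNA-binding partner, had 7.56 and 7.32, a mean of 7.44 ± 0.17. It lay 0.81 and 1.13 above the thresholds, and 26 and 12 receptor genes were as high. At the stricter 99th percentile of the receptor genes, 7.91 and 7.21, Runx1 passed on both arrays, Cbfb only on array 2 and Runx3 on neither.

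The promoters of the Runx genes shared a sequence. RefSeq promoter windows on GRCm38.p6, from 250 bases before to 50 after a start site, were given for 6 of the 10 genes, with 9 windows in all. They were searched on both strands for the Runx letters TGTGGT, which read ACCACA on the other strand, the Ets letters CCGGAA, reading TTCCGG there, and the Ikaros letters TGGGAA, reading TTCCCA there. Matches to different motifs did not overlap in any of the 9 windows. The windows that hold the Runx pair are shown because Runx1, Runx2 and Runx3 carry it in the same spacing, with the Runx letters in capitals and each sequence on the strand of its gene:
Runx1, minus strand, chr16:92826025-92826054: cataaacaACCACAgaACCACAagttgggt
Runx2, minus strand, chr17:44814583-44814612: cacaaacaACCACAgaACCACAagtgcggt
Runx3, plus strand, chr4:135120503-135120532: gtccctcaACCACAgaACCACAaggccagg

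In all 3 windows the letters stood as a direct repeat whose copies start 8 bases apart, within an identical stretch of 18 bases, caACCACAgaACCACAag. Counting the start site as 1, the first base of the pair was at position 29 for Runx1 and 24 for Runx2, and it lay 134 bases before the start site of Runx3. For Runx1 and Runx3, which had 2 start sites each in the table, the pair was in the window of the upstream one. A repeat in this spacing and direction was found in 7 of 32851 promoter windows (0.0213%), while 16.8% held the Runx letters at least once and 1.13% held 2 or more copies on the same strand. The spacing was noticed in these windows before it was counted, so the count is a description. Runx2 held a further copy 80 bases before its start site.

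The Ets and Ikaros letters were each in 1 window of these genes, against 14.9% and 25.6% of all windows. They are shown as the matches to the motifs of the other families within a Runx gene, with the match in capitals. The Ets letters stood 106 bases before the downstream start site of Runx1, and the Ikaros letters 154 bases before the upstream start site of Runx3, with 20 bases from their first base to that of the Runx pair:
Runx1, minus strand, chr16:92697418-92697447: cccaggctgataCCGGAAaggcctgtgatt
Runx3, plus strand, chr4:135120479-135120508: ttgggttgacacTGGGAAggtctggtccct

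The windows of Cbfb, Ikzf1 and Ikzf5 held none of the 3 motifs. These are matches of letters and not measured sites, and the arrays read a gene as a whole without separating its start sites.

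The 5 Ikaros genes were divided. Ikzf1, which encodes Ikaros, a regulator of lymphocyte development from early progenitors onward, had a signal of 8.75 on array 1 and 9.33 on array 2, a mean of 9.04 ± 0.41. It lay 2.01 and 3.14 above the thresholds, with 5 and 1 of the receptor genes as high. Ikzf5, which encodes the more distant relative Pegasus, had 9.32 and 9.62, a mean of 9.47 ± 0.21. It lay 2.58 and 3.43 above the thresholds, with 2 and 1 receptor genes as high, so both genes were well clear of the receptor signal on each array. Ikzf3, which encodes Aiolos, known from B cell maturation, had 6.57 and 6.78, a mean of 6.67 ± 0.15. It missed the threshold by 0.18 on array 1 and exceeded it by 0.59 on the other, so its call rests on which array is read.

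Ikzf2, which encodes Helios, a factor of many regulatory T cells, had 5.90 and 6.15, a mean of 6.03 ± 0.17. On array 2 it fell short of the threshold by only 0.04, and on array 1 by 0.84. Of the receptor genes 222 were as high on array 1 and 86 on array 2. Ikzf4, which encodes Eos, a corepressor partner of Foxp3 in regulatory T cells, had 5.40 and 5.54, a mean of 5.47 ± 0.10. With 355 and 198 receptor genes as high, it was within the receptor signal on both arrays. Of the Ikaros genes best known from regulatory T cells, neither Helios nor Eos was thus measured above the threshold.

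Ets1, which is required for NK cells and for normal T cell function in mice, had a signal of 9.50 on array 1 and 9.42 on array 2, a mean of 9.46 ± 0.06. It lay 2.76 and 3.23 above the thresholds, and 2 and 1 of the receptor genes were as high. Its SD was the smallest of the 9 genes.

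**Figure D2:**
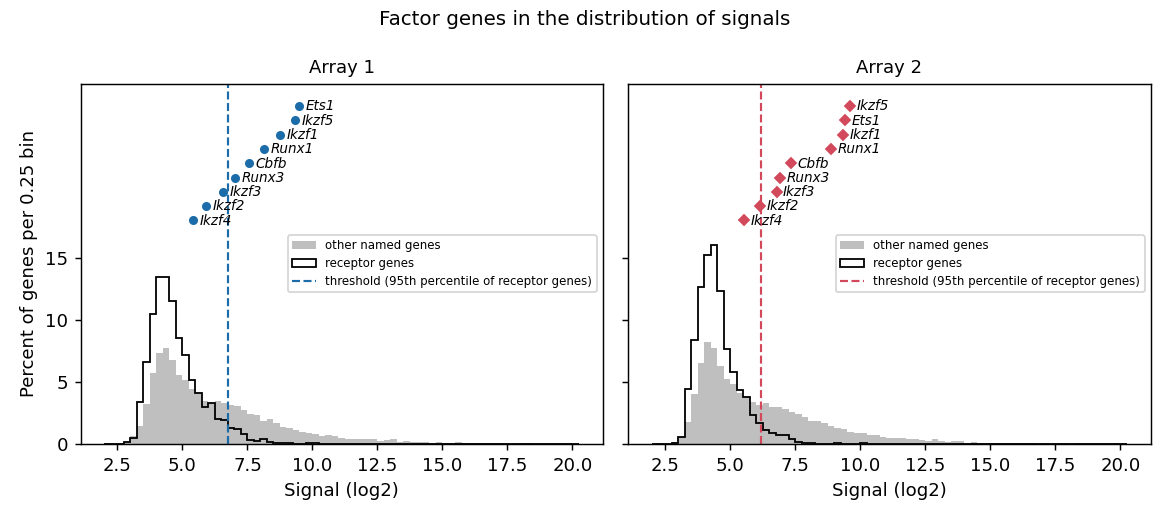
Distribution of signals on each array in bins of 0.25 log2 units, as percent of the 1678 receptor genes (outline) and of the other named genes (grey), with the threshold as a dashed line and the 9 factor genes as points stacked in the order of their signal (their height has no unit). Ets1, Ikzf5, Ikzf1 and Runx1 lie beyond nearly all receptor genes on both arrays, while Ikzf4 lies within them.

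Between the arrays, the difference of array 2 minus array 1 was centred by subtracting its median over all named genes, -0.05. None of the 9 genes differed by more than 2-fold, against 3.45% of all named genes and 4.16% of those above the threshold. Runx1 had the largest centred difference, 0.80, followed by Ikzf1 with 0.63 and Ikzf5 with 0.35. Of all named genes, 6.45% differed by more than Runx1 and 11.9% by more than Ikzf1. All 5 Ikaros genes and Runx1 were higher on array 2, with Ikzf2, Ikzf3 and Ikzf4 at 0.30, 0.26 and 0.19. Cbfb (-0.19), Runx3 (-0.05) and Ets1 (-0.03) were higher on array 1. Among all genes above the threshold, 55.3% were higher on array 2, a set that does not hold Ikzf2, Ikzf3 or Ikzf4. Over all named genes this share is fixed by the centring on their median. Each value is 1 array against 1 and has no replicate check.

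Marker lists of other cells differed between the arrays in both directions. The marker list of fibroblasts and smooth muscle was higher on array 2 for 9 of 9 genes, with a summed log2 signal of 118.8 on array 1 and 125.1 on array 2. In that list Dpt had the highest signal of each array, 19.80 and 19.86. Dcn, at 19.28 and 19.34, differed by the same amount. Whether these signals were saturated is not known, so neither difference is read on its own. Both genes are still part of the count and of the sums above. Des, the muscle filament gene desmin, had the lowest signal of the list, 8.77 ± 0.27. The largest centred difference was that of the collagen gene Col3a1, 2.08, followed by Col1a2 with 1.89 and Col1a1 with 1.74. Only these 3 differed by more than 2-fold and they made most of the difference in the sums. The rest ran from 0.05 for Lum to 0.44 for Des. Among macrophage and monocyte markers 6 of 9 were higher there, with sums of 91.4 and 93.8, Adgre1 at 0.86 and Lyz2 at -0.05. Among T cell markers 5 of 7 were, with sums of 52.4 and 53.2 and Cd4 at 0.92, whereas Ptprc was at -0.09. The innate lymphoid and NK cell list was nearly level, with sums of 61.9 and 62.1, although Il7r in it was at 0.85. Other lists were lower on array 2. Among intestinal epithelial markers 4 of 11 were higher there, with sums of 124.9 on array 1 and 122.5 on array 2 and Fabp1 at -1.09. Among mast cell and granulocyte markers 2 of 8 were, with sums of 47.7 and 45.1, S100a8 at -1.44 and S100a9 at -1.15. The part of these markers in the differences of Runx1 and Ikzf1 was not tested.

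**Figure D3:**
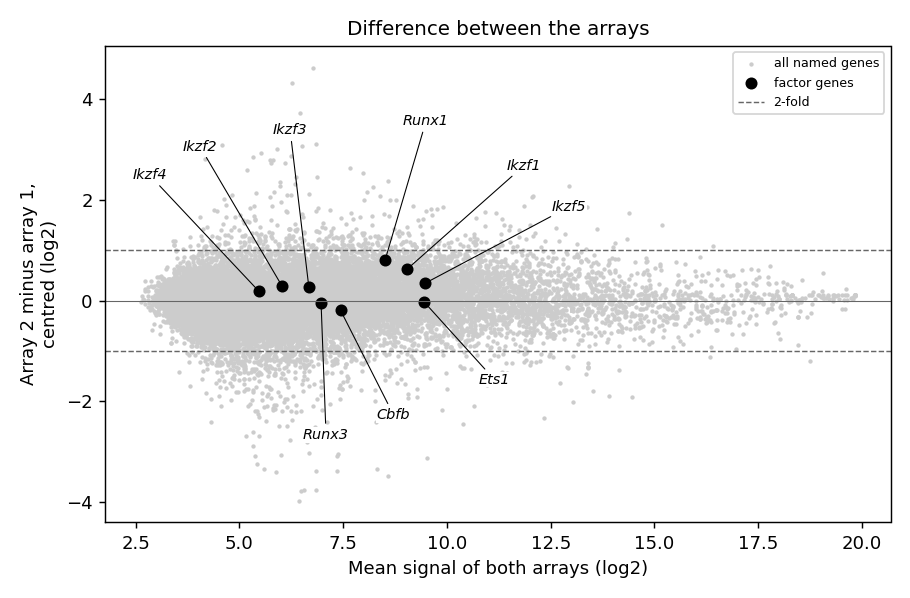
Centred difference between the arrays (array 2 minus array 1, log2) against the mean signal of both arrays (log2), for all named genes in grey and the 9 factor genes in black. All 9 lie between the dashed lines at 2-fold, with Runx1 and Ikzf1 highest at 0.80 and 0.63.

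The cofactors through which Runx proteins act were mostly above the threshold. Of 14 listed corepressors and coactivators 11 were measured, and 10 of these passed, with a list median of 8.32. Among protein-coding genes outside the receptor genes 39.0% passed, the background for this list and those that follow. Crebbp, a histone acetyltransferase, was highest with 11.02 and 11.21 (11.12 ± 0.13). Tle2, one of the Groucho-related corepressors that the carboxyl terminus of Runx proteins binds, was lowest with 5.33 and 5.35 and did not pass. Its relative Tle3 did, at 9.81 ± 0.27. Prmt1, an arginine methyltransferase, had the largest difference between the arrays, 8.05 on array 1 and 7.06 on the other.

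The Ikaros partners were above the threshold in 12 of 13 measured cases of 16 listed, with a median of 8.41. Rbbp7, a histone-binding subunit of NuRD, was highest with 12.86 and 13.60 (13.23 ± 0.52). Ctbp2, a corepressor that Ikaros binds apart from NuRD, was lowest with 6.64 and 6.76 and passed only on array 2. The NuRD subunit gene Gatad2b had the largest centred difference, 0.86. On array 2, 12 of the 13 genes were higher, against 55.3% of all genes above the threshold. This direction is that of 1 array against 1. Chd4, the main NuRD remodeller in lymphocytes, was not analysed here.

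In human cells, the cereblon ubiquitin ligase is directed against IKZF1 and IKZF3 by thalidomide-type drugs. Of 5 listed ligase genes 3 were measured, and 2 passed. Crbn, the substrate receptor, had 8.90 and 8.83 (8.87 ± 0.05), and the scaffold gene Cul4b had 7.41 and 7.34 (7.38 ± 0.05). The other scaffold gene, Cul4a, had 6.44 and 6.48 (6.46 ± 0.02) and passed only on array 2.

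Beside Ets1, 22 of 25 other Ets family genes were measured, and 13 passed, 3 exceeded the threshold on a single array and 6 did not exceed it, with a median of 7.68. Elf1, a broadly expressed activator in lymphocytes, was highest with 13.02 and 13.04 (13.03 ± 0.02). Etv2, a factor of early blood and endothelial development, was lowest at 3.88 ± 0.10, and Elk4, a partner of serum response factor, had the largest centred difference, 0.57. Fli1, Erg, Elf3, Ehf, Elf5 and Spdef were named after their values were seen. Fli1, found in blood and endothelial cells, had 8.89 and 9.11 and its close relative Erg 4.94 and 5.32, below both thresholds. Elf3 and Ehf, known from epithelium, passed with 9.81 ± 0.27 and 9.05 ± 0.02. Elf5 and Spdef, also known from epithelium, did not. Elf5, at 4.25 ± 0.09, lay below both thresholds, and Spdef, at 6.29 ± 0.20, exceeded the threshold only on array 2. Beside these, 9 of 11 intestinal epithelial markers passed, Krt8 being highest at 15.59 ± 0.24 and Lgr5 lowest at 5.07 ± 0.37, and 4 of 9 endothelial markers, Eng being highest at 8.38 ± 0.48 and Vwf lowest at 5.28 ± 0.13. The part of such cells in the Ets family signals was not tested.

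**Figure D4:**
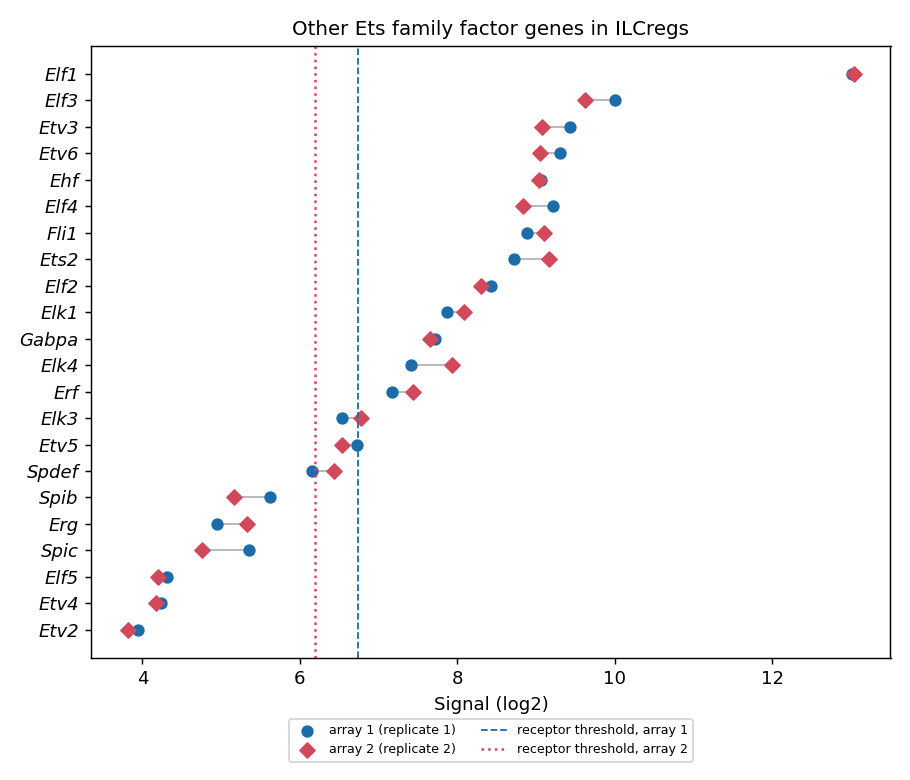
Signal (log2) of the 22 other measured Ets family genes on both arrays, sorted by mean signal, with each array's receptor threshold as a line. The genes range from Etv2 at 3.88 to Elf1 at 13.03, and 13 lie above the threshold on both arrays.

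Genes that the factors are known to act on in lymphocytes were mixed. The background was 39.0% of protein-coding genes outside the receptor genes. The Runx-linked and Ikaros-linked lists passed in shares near it. Of 11 measured genes linked to Runx factors 5 passed, Gzmb, Il2rb, Cd4, Ifng and Itgae. The granzyme gene Gzmb was highest with 13.40 and 13.37 (13.39 ± 0.02) and the cytokine gene Il4, which Runx3 silences in type 1 helper T cells, lowest with 4.28 and 4.56 (4.42 ± 0.20). Cd4, which Runx complexes silence in CD8 T cells, had 7.51 and 8.38 (7.95 ± 0.62), the largest centred difference of the list at 0.92. The T cell markers passed in 4 of 7 cases, with Cd3e at 9.79 ± 0.16 and Cd247 at 5.13 ± 0.27, and their part in the Cd4 signal was not tested.

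Of 7 measured genes linked to Ikaros factors 3 passed, with Il10 highest and the pre-B cell gene Igll1 lowest at 3.98 ± 0.29. Among 5 measured genes linked to Ets1 4 passed, with the inhibitor of DNA binding Id2 highest at 12.08 ± 0.21 and Tbx21, which encodes T-bet, lowest at 6.15 ± 0.08. The interleukin 7 receptor gene Il7r stands in both lists with 8.52 and 9.32, the largest centred difference in each at 0.85. The list medians were 6.64 for Runx, 5.19 for Ikaros and 8.92 for Ets1. The median was 5.43 for all named genes and 6.07 for protein-coding ones outside the receptor genes.

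**Figure D5:**
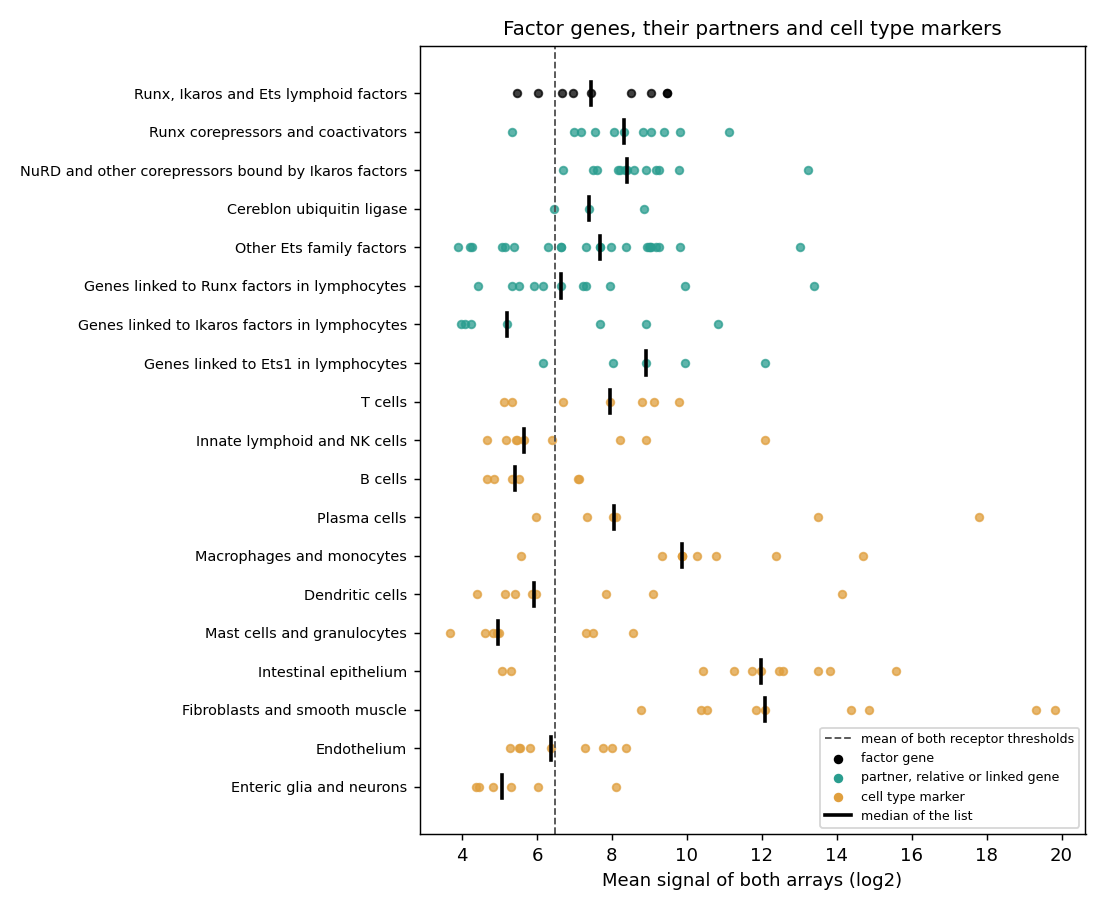
Mean signal of both arrays (log2) for the factor genes (black), their partners, relatives and linked genes (green) and cell type markers (orange), with a bar at each list's median and the mean of both thresholds as a dashed line. The factor genes have a median of 7.44, and the markers of fibroblasts and smooth muscle and of intestinal epithelium have medians of 12.08 and 11.97.

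Markers of other leukocytes and of enteric glia and neurons were divided. B cell markers passed in 2 of 6 cases, with Cd79b highest at 7.11 ± 0.03 and Fcer2a lowest at 4.65 ± 0.11. Plasma cell markers passed in 5 of 6, with Jchain at 17.79 ± 0.45 and Tnfrsf17 at 5.96 ± 0.59, and macrophage markers in 8 of 9, with Lyz2 at 14.71 ± 0.07 and Cd163 at 5.58 ± 0.09. Of 8 dendritic cell markers 3 passed, from H2-Aa at 14.15 ± 0.19 to Xcr1 at 4.39 ± 0.08. Mast cell and granulocyte markers passed in 3 of 8 cases, with Prg2 at 8.56 ± 0.54 and Epx at 3.67 ± 0.16, and enteric glia and neuron markers in 1 of 6, with Vip at 8.11 ± 0.30 and Elavl4 at 4.37 ± 0.25. The part of these cells in the signals of Ikzf1, Ikzf3 and Ets1 was not tested.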

How the data were processed

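The authors deposited 1 log2 signal per transcript cluster and array, for 2 arrays of 1 group. The log base was read from the range of the values, and MAS5 is named, with no role given, in the submitters' processing notes. How probes were summarized, corrected and scaled, and on which build, is not given in the sources used here. No further normalization was applied. Of 61344 features, 28573 carried 1 gene symbol and were used, 2014 carried several and 30757 none. Symbols were updated through Entrez identifiers of the GRCm38.p6 gene table, changing 783. For 213 genes with several features the one of highest mean signal was used. The code was run on simulated data whose planted levels and differences lay well clear of the limits. That run checks the code only and does not bear on genes near the threshold. The number of arrays limits the precision. The genes and lists were chosen with earlier results of these data known. Named were the 9 measured factor genes, all measured cereblon ligase genes, Il10 and Ptprc, the highest, lowest and most different gene of each partner, relative or linked list, and the highest and lowest of each marker list. Other examples were chosen after their values were seen. No gene of like pattern was sought, since 2 arrays give no measure of likeness. Python 3.11.15, numpy 2.4.6, pandas 2.3.3 and matplotlib 3.10.9 were used.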

Additional observations from a re-analysis of the deposited data

Results flagged for a closer look

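Features with several gene symbols were used for no gene. Of these, 9 held a gene of the partner, relative, linked or marker lists that no other feature measured, and 5 of the 9 lay above the receptor threshold on both arrays, against 727 of all 2014 such features. This drew attention as signal in data left unused. Which of a feature's genes gave it cannot be told, so none is named.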

How the results depend on the processing

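The count of 6 factor genes above the threshold was 7 at the 90th percentile of the receptor genes and with 57 keratin-associated protein and Rhox genes in their place, where Ikzf3 was added. At the 99th percentile it was 4, without Runx3 and Cbfb. Without replicate 1 or replicate 2 it was 6 to 7. It stayed at 6, with the same genes, with the median over features, after quantile normalization and with 1349 receptor genes without pseudogenes, a setting added after the data were seen. The 99th percentile, stricter by construction, left 5588 of 8971 named genes, 1 of 2 cereblon ligase genes and 2 of 5 Runx-linked genes. At the 90th percentile and without replicate 1, 3 cereblon ligase genes passed. No factor gene differed by over 2-fold between the arrays without centring, after quantile normalization, with the median over features or with centring on genes above the threshold, and the same 6 were higher on array 2 each time. No paired analysis was possible because the series holds 1 group. The background correction could not be changed from processed values.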

Other observations

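Outside the Runx genes, 4 genes had a promoter window with the Runx letters as a direct repeat starting 8 bases apart, the gene models Gm12236, Gm15462 and Gm16225 and the olfactory receptor gene Olfr24. They are named after the count was seen. None lay above the threshold on either array, with mean signals of 3.96 ± 0.37, 3.67 ± 0.05, 4.18 ± 0.01 and 4.84 ± 0.01.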
